A study of Mus musculus with 12 samples.

Results

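Cholesterol is made from acetyl-CoA through mevalonate, squalene and lanosterol, and 8 genes of this route were followed across mammary tumours of 6 mouse strains. They were the enzyme genes Hmgcs1, Idi1, Fdft1, Sqle, Lss, Cyp51 and Dhcr7 and the regulator gene Insig1. Members were taken by symbol: a probe belonged to a gene when the array's gene name, or the current symbol of its sequence accession, was 1 of the 8 names. This gave 18 probes of 41174 on the array, and all 8 genes were among the 28351 tested. None of the 8 encodes an uptake receptor or a sterol transporter, so the group holds synthesis genes and 1 regulator. Uptake and efflux genes are given below from a separate list.

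The transgene of all 6 strains was neu, the rat ErbB2 receptor in an activated form, driven by MMTV, a promoter active mainly in mammary epithelium. NDL25, written NDL2-5 in the protocol, was the parental MMTV/neu strain, and the derived strains were MMTV/neundl-NYPD and its relatives YB, YC, YD and YE. It is known of these lines that NYPD receptors have no tail tyrosines open to phosphorylation, and that each of the Y-named receptors regained 1 of them. RNA of 10 flash-frozen tumours per strain, from female mice that had borne tumours for 6 weeks, was combined into 2 pools of 5 tumours, and each pool was set against Universal Mouse Reference RNA, a commercial mixture, on 2 arrays with exchanged dyes. Ages are not given in the sources used here, and a pool hides the spread between its tumours.

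The sterol route is controlled by a feedback loop. When membranes are poor in sterol, SCAP escorts the transcription factor SREBP2, encoded by Srebf2, out of the endoplasmic reticulum, and the released factor raises the genes of sterol synthesis and uptake. INSIG1 holds SCAP back when sterol is plentiful, and mammary epithelium is a tissue that makes much lipid for milk.

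Each value below is a log2 ratio of tumour over reference, 1 per pool, on the gene's brightest probe unless another is named. A value of 0 is the level of the reference mixture, which is no normal tissue. The labels do not say which dye held the tumour RNA, so the direction is likely, not stated: on all 24 arrays the median of the luminal and milk genes, and Lalba and Erbb2 singly, lay on one side and Afp, a fetal liver gene, on the other. Single luminal and milk genes could lie on the other side of 0, down to -3.09 for Krt19. A list of reference cell genes, with Afp among its 7 tested genes, gave no direction as a set. The median over its 10 probes ran from -0.01 to 0.14 on the tumour side over the arrays, and Alb was at 0.09 to 1.13. Only that luminal median and the single genes Lalba, Erbb2 and Afp thus bear on which side is tumour. Erbb2 was 0.70 to 2.06 above the reference over its probes. Across the arrays 97.3% to 98.9% of spots were well above background. All 18 member probes were well above background on all 24 arrays, and none was saturated. Because the tumours were measured whole, fewer cells of a type and less RNA per cell cannot be told apart.

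Upstream sequence is shown for the members whose values the results turn on: Dhcr7 and Lss, which passed tests between strains, and Hmgcs1 and Cyp51, the pair whose pools were most alike. Windows of 250 bases before an annotated start were held for 6 of the 8 members, from RefSeq on build GRCm38.p6. The motifs searched, on both strands, were TCACNCCAC, a form of the sterol regulatory element that SREBP binds, CCAAT, the box bound by NF-Y, and GGGCGG, the GC box bound by Sp1. Capitals mark matches to any of them, on either strand, and 0 matches of different motifs overlapped.
Hmgcs1, chr13:119690101-119690350, plus strand: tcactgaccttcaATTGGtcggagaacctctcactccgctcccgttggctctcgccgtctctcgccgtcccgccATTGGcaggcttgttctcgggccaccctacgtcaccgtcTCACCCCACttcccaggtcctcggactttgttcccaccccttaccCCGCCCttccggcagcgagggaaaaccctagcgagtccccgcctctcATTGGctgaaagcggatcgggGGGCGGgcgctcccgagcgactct
Cyp51, chr5:4104698-4104947, minus strand: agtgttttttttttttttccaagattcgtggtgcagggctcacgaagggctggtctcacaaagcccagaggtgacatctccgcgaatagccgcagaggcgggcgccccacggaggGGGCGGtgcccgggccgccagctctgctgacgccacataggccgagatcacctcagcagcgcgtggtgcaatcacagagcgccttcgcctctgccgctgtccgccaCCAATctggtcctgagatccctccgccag
Lss, chr10:76531355-76531564, plus strand: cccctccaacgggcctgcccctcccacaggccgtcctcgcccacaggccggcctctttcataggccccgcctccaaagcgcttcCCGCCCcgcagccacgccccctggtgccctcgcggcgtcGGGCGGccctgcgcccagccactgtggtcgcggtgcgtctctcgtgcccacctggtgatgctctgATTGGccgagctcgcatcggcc
Dhcr7, chr7:143829964-143830213, plus strand: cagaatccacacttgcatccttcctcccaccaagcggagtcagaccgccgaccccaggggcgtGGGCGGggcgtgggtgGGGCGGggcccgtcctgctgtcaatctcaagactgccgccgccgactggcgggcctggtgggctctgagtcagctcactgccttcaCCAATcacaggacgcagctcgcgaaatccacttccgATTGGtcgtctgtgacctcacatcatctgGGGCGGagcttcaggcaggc
The Lss run was stopped after 210 bases, at the first annotated base of the gene. Dhcr7 had 3 windows, and the run shown lies before the start farthest downstream, inside the gene's span. It held the most matches. Of the windows not shown, the first held 1 match to GGGCGG and none to CCAAT, and the next held no match to any motif. Hmgcs1 held the match to TCACNCCAC, 137 bases before its start, and 1.05% of 32851 windows held one. CCAAT was matched in 6 of the 6 members with a window, counting a match in any window of a member, and in 33.8% of all single windows. GGGCGG was matched in 6 of 6 members, counted likewise, and in 32.7% of single windows. A match describes letters only, and binding was not measured.

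Dhcr7 was the member above the reference in all 12 pools, while Hmgcs1, Sqle, Fdft1 and Cyp51 were below it in all 12. Lss and Idi1 were above 0 in 2 pools each and Insig1 in 1. Over the pools the SD ran from 0.20 for Idi1 to 0.49 for Insig1, against a median of 0.15 over all genes tested. Much of that spread lay between pools of the same strain. The within-strain SD was 0.40 for Cyp51 and 0.48 for Insig1, against a median of 0.11 over all genes, but 0.14 for Dhcr7 and 0.16 for Lss.

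**Figure D1:**
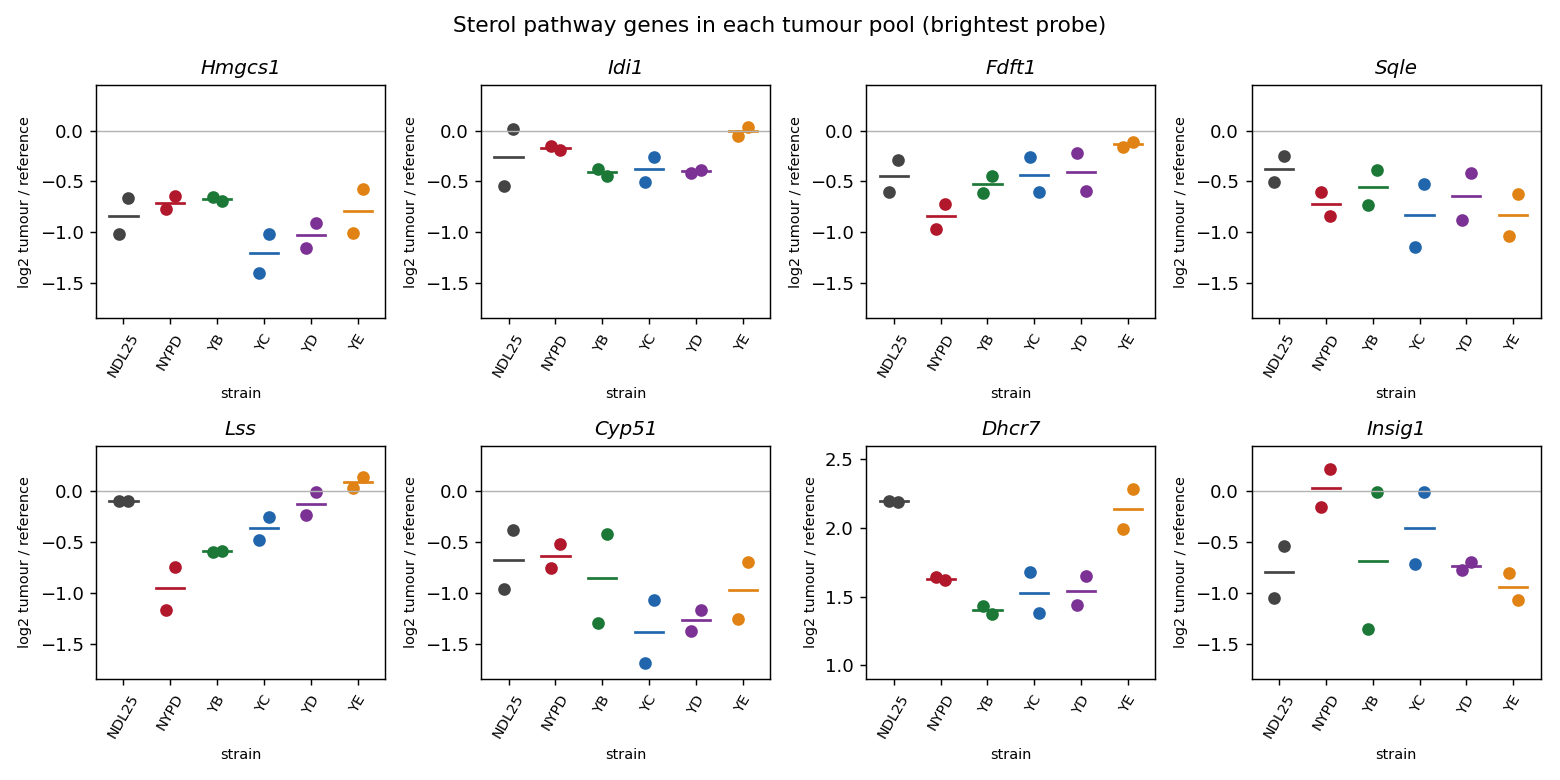
Log2 tumour over reference of the 8 genes on their brightest probes, by strain. Points are the 2 pools, bars their mean, and the grey line at 0 is the reference. Dhcr7 has its own axis range, because its pools lie at 1.38 to 2.28 while all other pools lie at -1.69 to 0.22. The highest Dhcr7 pools belong to NDL25 and YE, and the lowest Lss pools to NYPD.

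The limma F test over the 6 strains, with Benjamini-Hochberg adjustment over all genes, called 2 of the 8 members, Dhcr7 (adjusted p = 0.0399) and Lss (adjusted p = 0.0421). Over all genes it called 3.18%. In 3 of the 9 contrasts between strains a single member was called, and in the other 6 none was. Lss was lower in NYPD than in NDL25, Dhcr7 was lower in YB than in NDL25, and Lss was higher in YE than in NYPD. The 8 genes did not move as a block in any contrast: their median log2 difference ran from -0.32, in YC against NDL25, to 0.04, in YE against NYPD. Separation of the 4 pools of 2 strains is common on this array and says little alone. The pools of NYPD and NDL25 did not overlap for 5 of 8 members, against 47.1% of all genes. For NDL25 against YB, YC, YD and YE the members without overlap numbered 2, 4, 2 and 3, against 47.2%, 47.3%, 46.2% and 40.9% of all genes. For NYPD against YB, YC, YD and YE they numbered 4, 5, 6 and 5, against 45.6%, 40.9%, 41.7% and 49.9%.

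The first committed step of the mevalonate route, HMG-CoA synthase, is encoded by Hmgcs1. Its pools were at -1.01 and -0.66 in NDL25, -0.77 and -0.64 in NYPD, -0.65 and -0.69 in YB, -1.40 and -1.01 in YC, -1.16 and -0.91 in YD, and -1.01 and -0.58 in YE. YC was lowest and YB highest by mean, and each strain overlapped its neighbour in that order. The differences ran from -0.50 to 0.17, with adjusted p from 0.428 to 0.985. Hmgcs1 in YC lay below NYPD by an unadjusted test, with a log2 difference of -0.50, and missed the threshold (adjusted p = 0.428). A dim probe for the same transcript, A_52_P388072, stood at 0.44 ± 0.76 (SD, n = 2) in NYPD and -0.72 ± 0.08 in NDL25 (log2 difference 1.16, adjusted p = 0.170 in a limma fit of all probes). The gene read by the third probe, A_52_P119039, is uncertain from its annotation, and its values are not given here.

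Idi1 encodes the isomerase that supplies the second building block of the isoprenoids. Its 12 pools lay between -0.54 and 0.04, the narrowest spread among the 8 genes. The highest strain was YE, with pools at -0.05 and 0.04, and the pools of NYPD followed at -0.15 and -0.19 without reaching YE. NDL25 spanned nearly the whole range, with -0.54 and 0.01. No contrast passed the test (log2 differences -0.24 to 0.26, adjusted p 0.462 to 0.854). The second Idi1 probe, A_52_P441634, had another order, with NYPD highest by mean at 0.31 and 0.61 and YE at -0.02 and -0.01. On it YE lay -0.48 from NYPD (adjusted p = 0.316 in a limma fit of all probes), where the brightest probe gave 0.16 (adjusted p = 0.625).

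Squalene synthase, encoded by Fdft1, makes the first intermediate that is committed to sterols. Its pools stood at -0.60 and -0.29 in NDL25, -0.97 and -0.72 in NYPD, -0.61 and -0.45 in YB, -0.26 and -0.61 in YC, -0.22 and -0.59 in YD, and -0.16 and -0.11 in YE. Both YE pools were above all other pools and both NYPD pools below all others. YE exceeded NYPD by 0.71 ± 0.18 (SE, n = 2 pools per strain), which missed the threshold (adjusted p = 0.0915). A dim second probe of Fdft1 did not have this order: it was at 0.21 ± 0.01 in YB and between -0.05 and 0.02 by mean elsewhere. On that probe YB exceeded NYPD by 0.26 ± 0.05 in the limma fit of all probes (adjusted p = 0.0332).

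Sqle encodes squalene epoxidase, an oxygen-requiring and rate-controlling step. It was measured by 1 probe, with pools from -1.14 to -0.25. Neighbouring strains overlapped throughout the order from NDL25, at -0.38 ± 0.18 (SD, n = 2), to YC, at -0.83 ± 0.44. No contrast passed (log2 differences -0.45 to 0.16, adjusted p 0.569 to 0.943).

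Lss encodes lanosterol synthase, which closes squalene epoxide into the first sterol. On its brightest probe, A_52_P118161, the pools were at -0.10 and -0.10 in NDL25, -1.17 and -0.74 in NYPD, -0.59 and -0.58 in YB, -0.48 and -0.25 in YC, -0.23 and -0.01 in YD, and 0.03 and 0.14 in YE. NYPD was lowest without overlap with any other strain, and YE was highest without overlap. Neighbours in the order of means overlapped at 1 place, between NDL25 and YD.

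NYPD tumours had 1.81-fold less Lss than NDL25 tumours on that probe, a log2 difference of -0.86 ± 0.14 (SE, n = 2 pools per strain, 95% interval -1.19 to -0.52, limma adjusted p = 0.0463). Lss was the 1 member of 8 called there, against 1.01% of all genes. YE tumours had 2.06-fold more Lss than NYPD tumours, 1.04 ± 0.14 (95% interval 0.71 to 1.38, adjusted p = 0.0245), again 1 member of 8 against 1.87% of all genes. Both contrasts use the same 2 NYPD pools. The brightest probe, on which both calls rest, was matched to Lss by the array's gene name alone. The other 2 Lss probes, matched by a RefSeq transcript, showed less. A_51_P296487 gave log2 differences of -0.33 (adjusted p = 0.383) and 0.35 (adjusted p = 0.304), and A_52_P168028 gave 0.04 (adjusted p = 0.965) and 0.31 (adjusted p = 0.566). With the mean of all 3 probes neither contrast passed: -0.38 (adjusted p = 0.291) and 0.57 (adjusted p = 0.116). Over all alternatives the first call was kept in 5 of 18 and the second in 15 of 18. The first was lost without NDL25 pool 1 (adjusted p = 0.212), NDL25 pool 2 (0.151) or NYPD pool 1 (-0.64, adjusted p = 0.0694), and without any pool of YC, YD or YE (0.0654 to 0.0749). The second was lost without YE pool 1 (adjusted p = 0.0695) or YE pool 2 (0.174). The NYPD arrays were the ones read on their own feature extraction day, so NYPD and that day cannot be told apart.

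**Figure D2:**
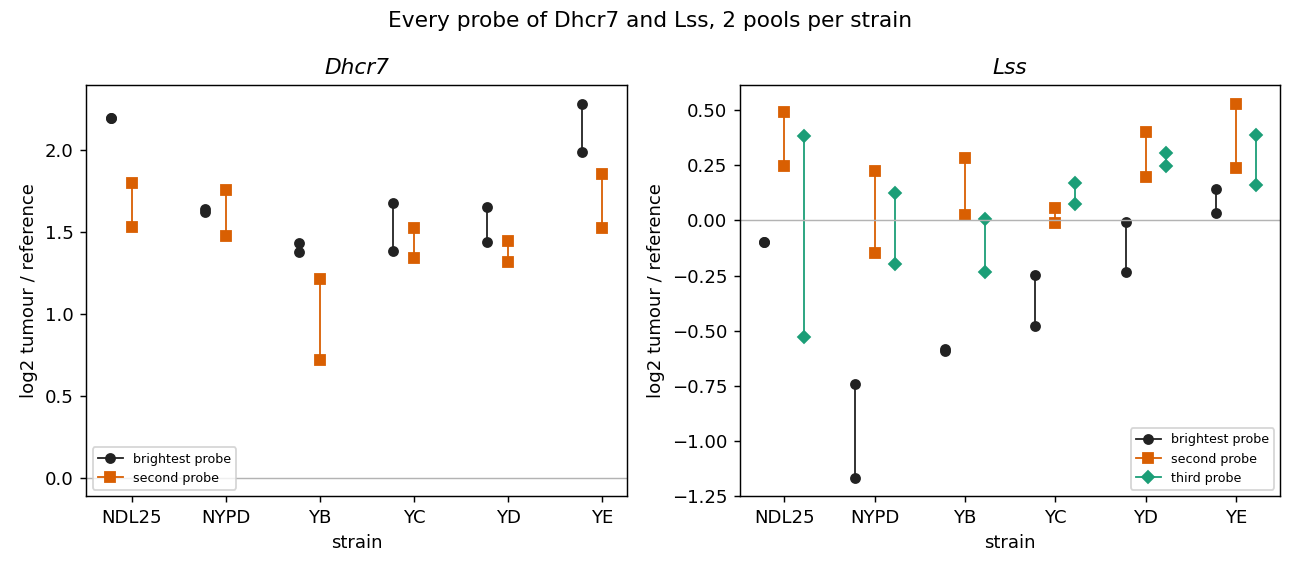
Log2 tumour over reference for each probe of Dhcr7 and Lss by strain. Joined points are the 2 pools, and colour and shape mark the probe. The brightest Lss probe falls to -1.17 and -0.74 in NYPD, where its other probes lie between -0.20 and 0.22. Both Dhcr7 probes are lowest by mean in YB.

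Genes of several marker lists were called in the same contrasts as Lss, and their part in the result was not tested. In NYPD against NDL25, 2 of 10 luminal and milk genes and 1 of 10 macrophage genes were called higher and 1 of 12 proliferation genes lower. Over all genes 1.01% were called. The list medians were 0.07, 0.29 and -0.20 in that order. The 10 fibroblast genes had a median log2 difference of 0.72. Of them 0 were called by limma and 3 had an unadjusted p under 0.05, against 4439 of all 28351 genes. The log2 of the summed fibroblast ratios was 3.79 to 4.44 in NYPD pools and 3.41 to 3.55 in NDL25 pools. With every gene at the reference level such a sum lies at the log2 of the number of genes, not at 0. It is therefore read between strains only. In YE against NYPD, 3 of 10 luminal and milk genes, 2 of 10 macrophage genes and 1 of 8 endothelial genes were called lower. Over all genes 1.87% were called. The list medians were -0.20, -0.63 and -0.41 in that order. The fibroblast median was -1.13 there. Of the 10 genes 0 were called by limma and 9 had an unadjusted p under 0.05, against 5496 of all 28351 genes. Their summed ratios were at a log2 of 2.62 to 3.37 in YE for the fibroblast list.

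Cyp51 encodes the demethylase that acts on lanosterol. Its pools were at -0.97 and -0.38 in NDL25, -0.76 and -0.52 in NYPD, -1.30 and -0.41 in YB, -1.69 and -1.07 in YC, -1.38 and -1.17 in YD, and -1.26 and -0.69 in YE. The 2 pools of a strain lay 0.21 to 0.88 apart, and all neighbours in the order of strains overlapped. No contrast passed (log2 differences -0.74 to 0.03, adjusted p 0.514 to 0.978), and the 95% intervals reached from -1.57 to 0.85. A second Cyp51 probe, A_52_P164161, had less spread between pools, with strain means from -0.83 in YC to -0.54 in NYPD. The third, A_51_P485791, had NDL25 lowest by mean, at -1.75 and -0.43, and NYPD highest, at -0.59 and -0.19. On it YC against NDL25 was 0.16 (adjusted p = 0.939), where the brightest probe gave -0.71, and NYPD against NDL25 was 0.70 (adjusted p = 0.519), where the brightest probe gave 0.03.

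Dhcr7 encodes the reductase of the last step to cholesterol. Its pools were at 2.20 and 2.19 in NDL25, 1.64 and 1.62 in NYPD, 1.43 and 1.38 in YB, 1.68 and 1.38 in YC, 1.44 and 1.65 in YD, and 1.99 and 2.28 in YE. The pools of NDL25 and YE were above those of the other 4 strains without overlap. YB tumours had 1.73-fold less Dhcr7 than NDL25 tumours, a log2 difference of -0.79 ± 0.13 (SE, n = 2 pools per strain, 95% interval -1.08 to -0.50, limma adjusted p = 0.0188). It was the 1 member of 8 called in this contrast, against 3.92% of all genes.

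Dhcr7 in NYPD, YC and YD against NDL25 differed by -0.57, -0.67 and -0.65, and none of these passed (adjusted p = 0.0848, 0.114 and 0.131). YE exceeded NYPD by 0.51 (adjusted p = 0.0917). The second Dhcr7 probe, A_52_P535946, gave -0.70 for YB against NDL25 (adjusted p = 0.117), but -0.05 for NYPD against NDL25 (adjusted p = 0.938) and 0.08 for YE against NYPD (adjusted p = 0.863). On it the NYPD pools, 1.47 and 1.76, overlapped those of NDL25, 1.53 and 1.80, and those of YE, 1.52 and 1.86. The separation of NDL25 and YE from NYPD was thus seen on the brightest probe alone. Pools of YB, YC and YD still lay below those of NDL25 and YE on the second probe. The margin was small, with the highest YC pool also at 1.52.

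YB tumours also differed from NDL25 in salivary gland genes. Of 9 such genes tested, 8 were called higher in YB, with a list median of 3.83. Over all genes 3.92% were called in YB against NDL25. The log2 of the summed ratios was 7.42 to 7.77 in YB against 3.20 to 3.21 in NDL25. Here too a list at the reference level lies at the log2 of its number of genes, not at 0. The fibroblast list had a median of 0.79, with 0 of 10 called by limma and 3 at an unadjusted p under 0.05. Of all 28351 genes, 4900 reached that unadjusted level. Of the other lists, 1 of 12 adipocyte, 1 of 10 macrophage, 1 of 10 luminal and milk and 1 of 7 reference cell genes were called higher and 1 of 12 proliferation genes lower. The part of these cells in the Dhcr7 difference was not tested. All YB and NDL25 arrays were read on the same extraction day. A block for the day therefore cannot adjust the Dhcr7 difference between them, and only the error estimate changes. With that block the difference passed (adjusted p = 0.0243). Within that day alone, with 5 pools, its size was the same, -0.79, and it did not pass (adjusted p = 0.168). Without NDL25 pool 1, NDL25 pool 2 or YB pool 2 the adjusted p was 0.120, 0.103 or 0.0577.

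**Figure D3:**
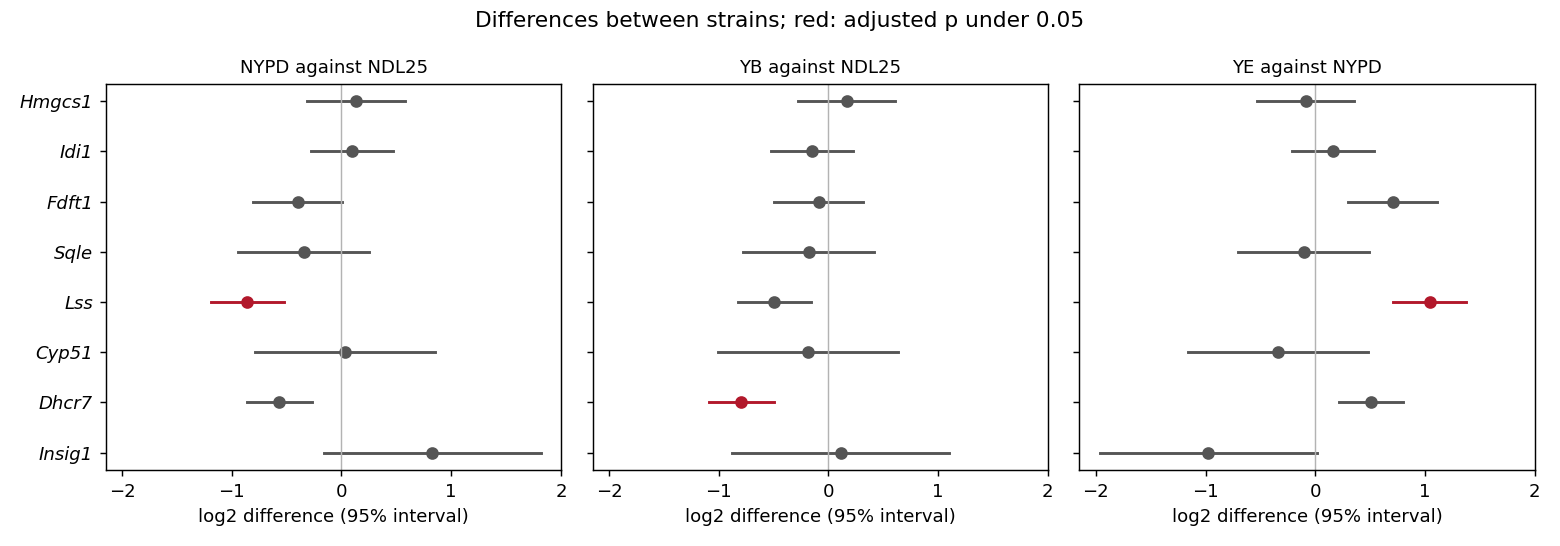
Log2 differences of the 8 genes in the 3 contrasts where a member passed, with 95% intervals from the limma model over 12 pools. Red marks an adjusted p under 0.05: Lss at -0.86 and 1.04, and Dhcr7 at -0.79. The intervals of Insig1 and Cyp51 are the widest and include 0 in each panel.

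Insig1 encodes the sterol-sensing anchor of SCAP and is itself an SREBP target. Its pools were at -1.05 and -0.54 in NDL25, -0.15 and 0.22 in NYPD, -1.35 and -0.01 in YB, -0.72 and 0.00 in YC, -0.77 and -0.69 in YD, and -0.81 and -1.07 in YE. NYPD was highest by mean, and the YB pools were 1.35 apart. No contrast passed: the differences ran from -0.97 to 0.83, with adjusted p from 0.265 to 0.982 and 95% intervals from -1.96 to 1.82. A dimmer second probe was nearly flat, with strain means from -0.26 to -0.10.

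In the other 6 contrasts limma called 0 of 8 members. The share called over all genes was 0.00705% in YC against NDL25, 0.00705% in YD against NDL25, 0% in YE against NDL25, 5.17% in YB against NYPD, 0.0176% in YC against NYPD and 0.0317% in YD against NYPD. At an unadjusted p under 0.05, the members of the 8 numbered 1, 1, 0, 1, 3 and 2 in that order. Of all 28351 genes, 3224, 2941, 2149, 5690, 2907 and 3068 reached that level in the same order. The members against NYPD were Lss in all 3 contrasts, Hmgcs1 and Fdft1 in YC, and Fdft1 in YD. The largest of them was Lss in YD, 0.83 above NYPD (adjusted p = 0.0995). Over the 69 differences that missed the threshold, the 95% intervals reached from -1.96 to 1.82. Both ends belonged to Insig1, so changes of several-fold in that gene were within the error. For Idi1, the gene with the narrowest reach, they ran from -0.62 to 0.63.

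Across the 12 pools the 8 genes varied together only in part. Of 28 pairs, 20 had a correlation above 0, with a median r of 0.17. Hmgcs1 and Cyp51 were most alike (r = 0.80), followed by Fdft1 with Lss (r = 0.72) and Sqle with Cyp51 (r = 0.68). Insig1 ran against Lss (r = -0.50), Fdft1 (r = -0.43) and Dhcr7 (r = -0.42). These values describe 12 pools that share a reference, a strain in pairs and, in part, an extraction day. They also share a pattern by pool number: the pool numbered 2 was above the pool numbered 1 in 6 of 6 strains for Lss, for Cyp51 and for the mean of the 8 genes, and in 5 of 6 for Hmgcs1, Sqle and Insig1. Its part in the correlations was not tested. The genes with ordinary symbols whose pools followed the mean of the 8 most closely were Ubr3 (r = 0.91), Nup214, Cntrl, Ndor1, Rap1gap2, Trp53inp2, Gorasp2, Slc25a12, Adal and Sec61a2 (r = 0.86).

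**Figure D4:**
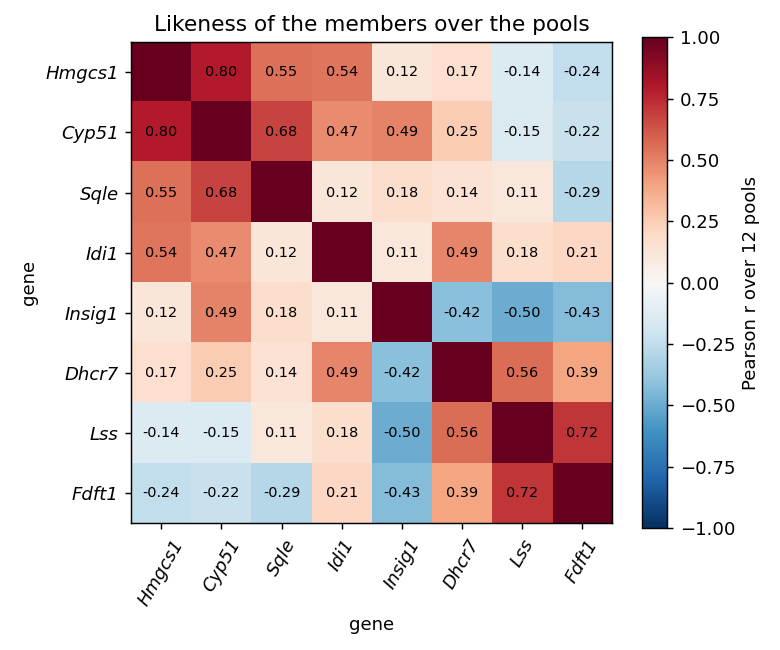
Pearson correlation of each pair of the 8 genes over the 12 pools, from brightest probes. Hmgcs1, Cyp51 and Sqle form a corner of positive values (0.55 to 0.80), as do Dhcr7, Lss and Fdft1 (0.39 to 0.72), and Insig1 has negative values with the second corner.

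The rest of the synthesis route was read from a list of 14 further enzymes, all tested. limma called 0 of 14 in the F test and in each of the 9 contrasts. Over all genes it called 3.18% in the F test and 0% to 5.17% in the contrasts. Between 0 and 4 per contrast had an unadjusted p under 0.05, against 2149 to 5690 of all 28351 genes. List medians ran from -0.13 in YB against NDL25 to 0.21 in YE against NDL25.

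Among 10 regulators of the route, 1 was called higher in YB against NDL25, and 1 higher and 1 lower in YB against NYPD. Over all genes 3.92% and 5.17% were called in these contrasts. Scap was at 1.33 and 0.98 in YB and between 0.42 and 0.69 in the other 10 pools. It rose in YB by 0.57 ± 0.12 (SE, n = 2 pools per strain) against NDL25 (adjusted p = 0.0426) and by 0.62 ± 0.12 against NYPD (adjusted p = 0.0292). With the extraction day as a block the first did not pass (adjusted p = 0.0793), and within the shared day it did not either (adjusted p = 0.298). Because YB and NDL25 shared that day, neither fit tests a day effect on Scap. The Scap calls were kept in 6 of 20 and 6 of 18 alternatives. Srebf1, whose products drive fatty acid and sterol genes, was lower in YB, at 2.35 and 2.11, than in NYPD, at 3.23 and 2.90 (difference -0.83 ± 0.18, adjusted p = 0.0445), a call kept in 2 of 17 alternatives. Srebf2 lay between -0.47 and -0.09 and passed in no contrast (adjusted p 0.307 to 0.988).

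Among 14 tested genes of sterol uptake, lysosomal release and efflux, limma called 1 in the F test and 1 in the 9 contrasts. Over all genes it called 3.18% in the F test and 1.87% in YE against NYPD, the contrast of that call. Abcg1, which exports cholesterol to HDL, was lower in YE, at 0.45 and 0.35, than in NYPD, at 0.93 and 1.05 (difference -0.59 ± 0.11, adjusted p = 0.0419), a call kept in 9 of 18 alternatives. By mean it was highest in NDL25, at 1.26 and 0.94, and these pools overlapped those of NYPD and of YB.

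Of 11 tested genes of the neighbouring fatty acid list, 1 was called in the F test, against 3.18% of all genes. Per contrast, 1 was called higher in NYPD and 1 in YB against NDL25, and 1 was called lower in YB and 2 in YE against NYPD. Over all genes 1.01%, 3.92%, 5.17% and 1.87% were called in that order. The list medians in these contrasts were 0.44, -0.02, -0.36 and -0.41. The 3 genes with the smallest p of the F test were Fads1, Acly and Fads2, and the values below are those of the list's strongest results. Fads1, a delta-5 desaturase, was at -2.36 and -2.29 in NDL25, -2.04 and -2.31 in YE, and -0.30 and 0.20 in NYPD. It rose by 2.28 ± 0.34 in NYPD (adjusted p = 0.0356) and by 1.92 ± 0.34 in YB (adjusted p = 0.0266) against NDL25, and fell by 2.13 ± 0.34 in YE against NYPD (adjusted p = 0.0341). A fit within the extraction day shared by YB and NDL25 uses the same pools of both strains, so the size of its Fads1 difference is fixed. In that fit the Fads1 difference did not pass, and a day effect on Fads1 was not tested. Acly, which makes the acetyl-CoA that feeds both routes, was at 0.94 and 0.71 in NYPD and at or below 0.08 in all other pools. It fell in YB by 0.87 ± 0.17 (adjusted p = 0.0304) and in YE by 1.04 ± 0.17 (adjusted p = 0.0343) against NYPD, and its excess in NYPD over NDL25 lay at the threshold (0.96, adjusted p = 0.05004). A second Acly probe was flat, and with the mean of both the YE difference was -0.50 (adjusted p = 0.0527). Fads2, the delta-6 desaturase, was at -0.51 and -0.52 in NDL25 and -0.26 and 0.10 in NYPD, and its F test did not pass (adjusted p = 0.122).

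**Figure D5:**
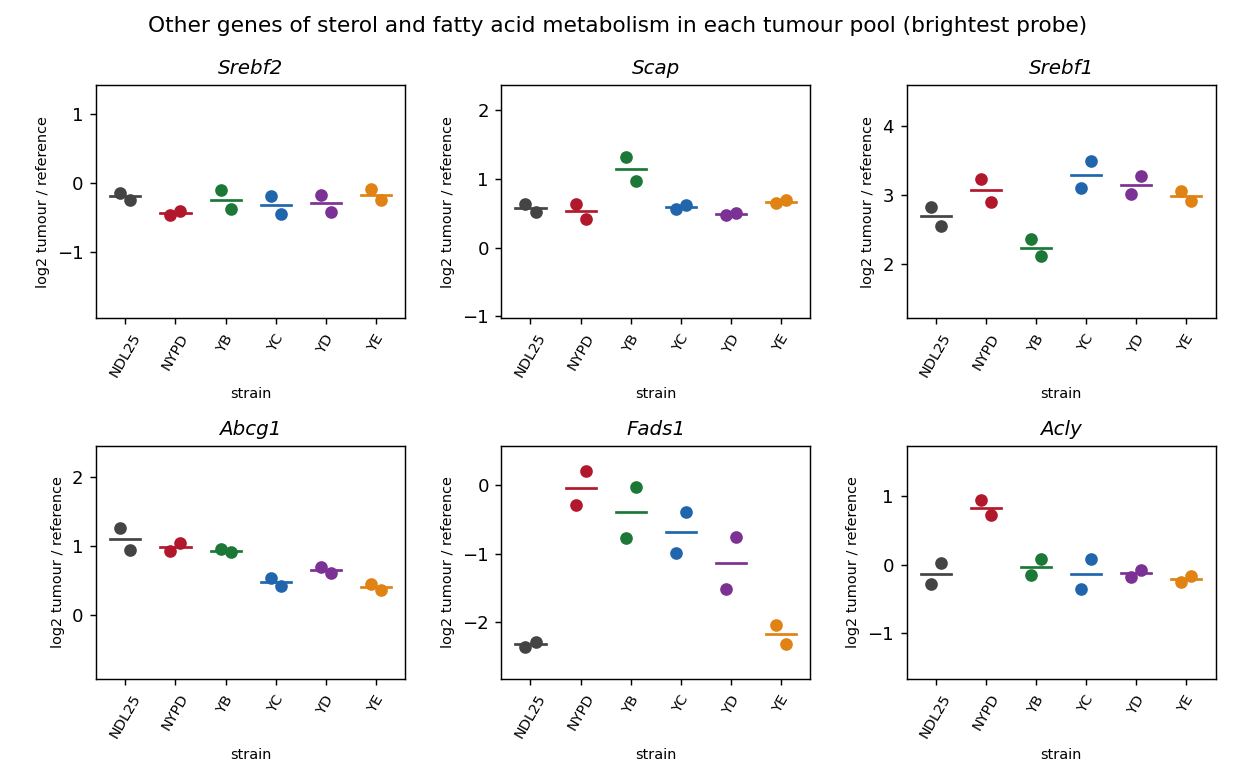
Log2 tumour over reference of 6 further genes by strain, on brightest probes. Points are the 2 pools and bars their mean, and each panel spans the same height on the log2 scale around the gene's own mean. Scap is high in YB, at 1.33 and 0.98, Acly is high in NYPD, and Fads1 is low in NDL25 and YE.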

How the data were processed

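Per the file headers, Agilent Feature Extraction (version A.7.5.1) wrote the deposited scanner files, which give for each channel a spot's mean intensity and its local background as a median. One log2 ratio per pool, over both arrays of a dye swap, was deposited too. RMA, limma and R 2.3.0 appear in the submitters' processing notes, and their settings are not given in the sources used here. These ratios correlated with the computed ones at r = 0.983 or above, which gives their direction and leaves the log base an assumption, and their medians ran from -4.32e-05 to 0.0185. The sources used here give no genome build for the arrays.

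The computation used R 4.3.3 with limma (version 3.58.1) and data.table (version 1.17.8): normexp with an offset of 50, then loess per array. Arrays were turned to tumour over reference and averaged to 1 ratio per pool. Unturned, both arrays of each pool had a correlation of -0.899 or lower. Of 41174 probes, 698 lacked a usable pair in some pool, 312 had tumour signal well above background on fewer than 4 arrays, and 11813 were not their gene's brightest. Symbols came from RefSeq by accession (20716 probes), symbol (5039) or synonym (5279), and 10140 probes kept the name in the file. One limma model with 6 strain means over 12 pools gave the F test and 9 contrasts, adjusted by Benjamini-Hochberg in each, at a threshold of 0.05, and was tested on simulated data. A fit of all probes gave the values of single probes. SE is the moderated standard error.

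Named were the 8 members, Srebf2, up to 4 further pathway genes per contrast past the threshold, 3 fatty acid genes by F test, and 10 genes by likeness. Some further genes that the rule names are not reported here. Members and lists were chosen with earlier results of these data known. The probes singled out for disagreement were chosen after their values were seen.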

Additional observations from a re-analysis of the deposited data

How the results depend on the processing

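Alternatives were median centring, the scanner's processed signals, the deposited ratios, no filter on dim probes, the mean of a gene's probes, the pool number as a replicate block, the extraction day as a block or day 2 alone, and each pool left out. The number of members called by the F test was 1 with median centring, 0 with deposited ratios, 0 with the mean of all probes and 1 with the replicate block. In NYPD against NDL25 it was 0 with median centring, 0 with processed signals, 0 with deposited ratios and 0 with the mean of all probes, and Lss had adjusted p from 0.0260 to 0.291 over 18 alternatives. In YE against NYPD it was 0 with the mean of all probes. In YB against NDL25 it was 0 on day 2 alone. With 1 pool left out it ran from 0 to 1 in the F test, in NYPD against NDL25, in YB against NDL25 and in YE against NYPD, and was 0 in the other 6 contrasts. Such fits leave 1 pool in a strain, assumed to vary like the others.

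The direction of all 3 called member differences held under each alternative run. In many of these runs the difference could not change. Leaving out a pool of a strain outside the contrast, the replicate block and dropping the filter on dim probes all leave it the same. Sizes ranged from -1.12 to -0.38 and 0.57 to 1.32 for Lss and from -0.96 to -0.75 for Dhcr7. Of 1067 values of member differences with an unadjusted p over 0.05, 56 had the other sign under an alternative, and 0 of these passed the test. Many of the 1067 were fixed in the same way, so the share of changed signs does not measure stability. The labels do not tie equal pool numbers together, and 7 of 15 strain pairs had deviations correlated over 0.1 (range -0.17 to 0.71), short of every pair, so the pools were not treated as paired. Under the replicate block the calls were 1 in each of the 3 contrasts, and Dhcr7 lost its F test call (adjusted p = 0.0575). Srebf1 in YB against NYPD lost its call there (adjusted p = 0.0571). Acly kept its call in 10 of 18 for YB and 9 of 18 for YE, and Fads1 in 11 of 18, 14 of 20 and 12 of 18. Genes called over the array ranged from 159 to 1299 in the F test (901 as reported), 0 to 585 in NYPD against NDL25 (286), 12 to 1211 in YB against NDL25 (1112), 1 to 990 in YE against NYPD (531), 395 to 1805 in YB against NYPD (1466), 0 to 67 in YC (2), 0 to 24 in YD (2) and 0 to 2 in YE (0) against NDL25, and 0 to 300 in YC (5) and 0 to 326 in YD (9) against NYPD. The causes were not tested. The strains had 2 pools each, which left 6 residual degrees of freedom, and the number of pools limits the precision.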
